A study of Mus musculus with 20 samples.

Results

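The Hox genes encode homeodomain transcription factors that lie in 4 clusters, and in each cluster the order of the genes along the chromosome follows their order of use along the body axis. Genes at the same relative place in different clusters are paralogs and carry the same number (a paralog group): low numbers act towards the head, high numbers towards the tail and the ends of the limbs. In adult mice they stay active in a regional and cell type specific way. Hoxb4 and Hoxa9 are known for their action in blood stem and progenitor cells, and the group 11 genes are needed for the first steps of kidney formation. Hox proteins bind DNA together with the PBX and MEIS families of homeodomain proteins. Outside their domain of use the clusters are held silent by Polycomb complexes.

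The members described here were all genes whose symbol was Hoxa, Hoxb, Hoxc or Hoxd followed only by a number. These were 39 of the 55486 genes in each of the 2 count tables, of which 11 belonged to HoxA, 10 to HoxB, 9 to HoxC and 9 to HoxD. In the mouse genome build GRCm38, HoxA lay on the minus strand of chromosome 6, and the other clusters lay on plus strands. HoxB spanned chromosome 11 from 96194316 to 96368256, HoxC chromosome 15 from 102921103 to 103036852 and HoxD chromosome 2 from 74668310 to 74765142.

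The study asked how oxaliplatin, a platinum compound used against colorectal cancer, affects blood formation. C57BL/6 mice of both sexes, 10 weeks old at the start and with no genetic change stated, received 10 mg/kg oxaliplatin in 5% dextrose into the abdominal cavity over 8 weeks, and control mice received 5% dextrose (vehicle) alone. The marrow of both leg bones, femur and tibia, was collected at 6 days from the final injection. RNA was sequenced in bulk from marrow and kidney in 4 groups of 5 libraries: vehicle marrow, oxaliplatin marrow, vehicle kidney and oxaliplatin kidney. The sex of each mouse was not in the labels, nor whether a marrow and a kidney came from the same animal, and the 5 libraries of a group are called mice 1 to 5 here by their number in the labels. Marrow and kidney RNA were extracted by different procedures, so tissue and extraction cannot be told apart.

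The marrow libraries held 30660153 to 41140527 counted reads and the kidney libraries 24393007 to 30925430. All 20 libraries carried the defining markers of their labelled tissue. Levels are given as CPM, a gene's reads relative to the scaled size of its library. The summed level of 9 neutrophil genes was 10272 to 27152 CPM in the marrows and 0.431 to 2.84 CPM in the kidneys, and the summed level of the proximal tubule genes was 13202 to 27066 CPM in the kidneys and 1.98 to 5.51 CPM in the marrows. CPM values of 1 tissue were scaled within that tissue by TMM, which corrects for differences in RNA composition between libraries. A count of 3, taken as the floor, stood for 0.0667 to 0.0974 CPM in a marrow library and 0.0899 to 0.129 CPM in a kidney library. These are counting limits only, and with bulk tissue a lower level cannot be told apart from fewer cells of the type that makes the RNA.

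In vehicle mice, Hox RNA was far more abundant in kidney than in marrow, and HoxD held a much smaller share of it in marrow. Levels of different genes are compared here as CPM per kb of exon, scaled over both tissues. The summed level of all 39 genes was 237 ± 10.1 CPM per kb (SD, n = 5) in vehicle kidney and 11.6 ± 0.857 CPM per kb in vehicle marrow. In vehicle kidney HoxD held 31.5 ± 1.14% of that sum, HoxB 30.1 ± 0.329%, HoxA 26.7 ± 0.953% and HoxC 11.7 ± 0.538%. In vehicle marrow HoxA held 43.6 ± 5.46%, HoxB 37.1 ± 4.26%, HoxC 15.7 ± 5.14% and HoxD 3.48 ± 0.388%. HoxD was thus high in kidney and held the smallest part in marrow. Its kidney share was 27.2% when levels were taken per coding length and 28.5% per longest transcript.

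By position, kidney Hox RNA came from the middle of the clusters. Paralog groups 5 to 8 held 56.3 ± 0.651% of the sum in vehicle kidney, groups 9 to 11 held 36.1 ± 0.498%, groups 1 to 4 held 7.52 ± 0.493%, and groups 12 and 13 held 0.0419 ± 0.0409%. In vehicle marrow the share of groups 1 to 4 was 34.9 ± 4.26%, that of groups 5 to 8 was 44.7 ± 3.78%, that of groups 9 to 11 was 19.8 ± 1.98%, and that of groups 12 and 13 was 0.575 ± 0.350%. The 6 genes of groups 12 and 13, which shape the digits, the hair and the end of the gut and urogenital tract, did not pass the filter on low counts in either tissue. In vehicle kidney their counts were 0 to 8 per library, and Hoxb13 and Hoxd13 were at 0 in all 5 mice.

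**Figure D1:**
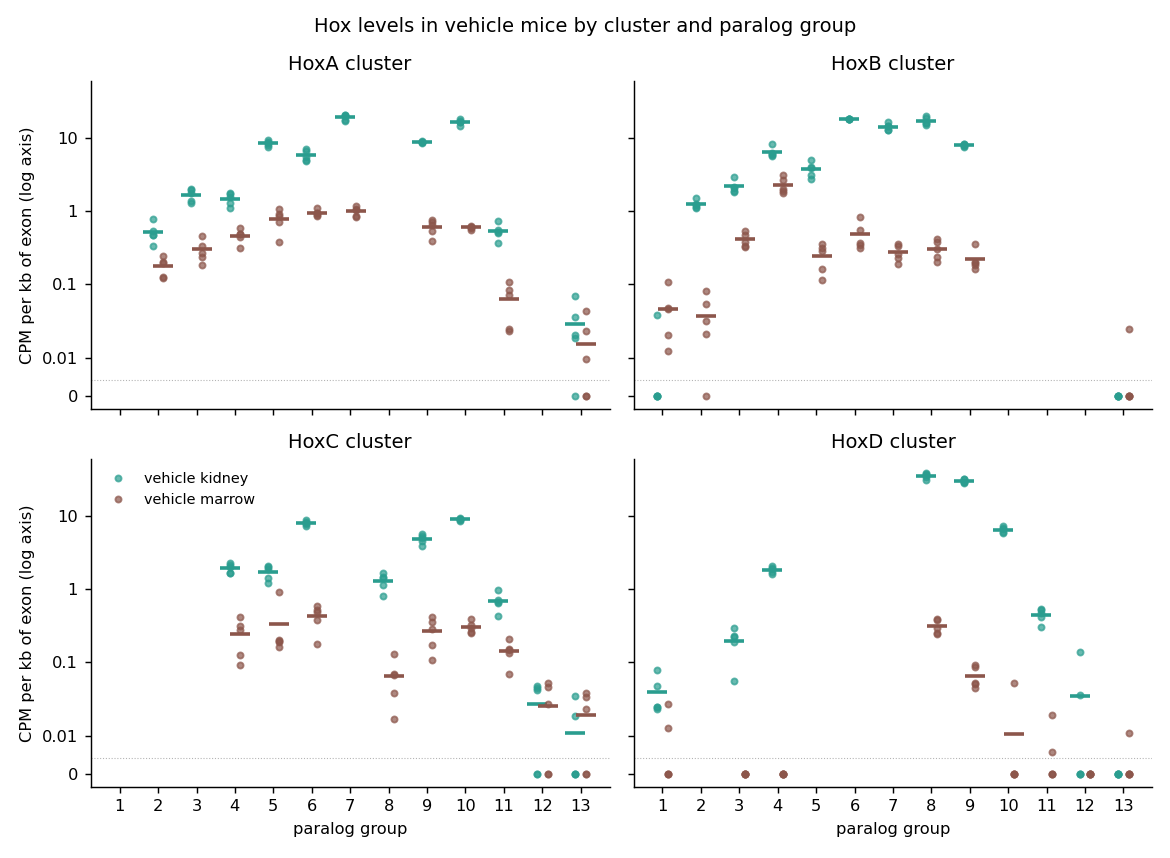
Level of Hox genes in CPM per kb of exon (log axis, with values of 0 drawn below the dotted line) by paralog group in the 4 clusters, for 5 vehicle kidneys and 5 vehicle marrows. Points are mice and dashes are means of 0.01 or more; kidney lies above marrow for groups 2 to 11, and Hoxd3 and Hoxd4 are at 0 in every vehicle marrow.

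The highest Hox gene of the kidney was Hoxd8, a mid-cluster gene, with 80.5, 75.1, 88.1, 92.0 and 86.9 CPM in vehicle mice 1 to 5. Its level per length was 35.4 ± 2.74 CPM per kb (SD, n = 5). Next came its neighbour Hoxd9, with 58.6, 52.4, 54.7, 59.5 and 53.6 CPM, or 30.0 ± 1.79 CPM per kb, and the mice of these 2 neighbours overlapped on the per-length scale. All vehicle kidneys had more Hoxd9 per length than any had of the third gene. That gene was Hoxa7, with 50.5, 44.3, 42.9, 50.2 and 51.3 CPM. Hoxb6 followed with 30.3, 30.7, 31.4, 30.7 and 30.9 CPM, and Hoxb8 with 42.7, 34.2, 36.9, 46.5 and 36.8 CPM, which is less per length because its exons are longer. From Hoxa7 down to Hoxb7, the seventh gene and the source of a promoter widely used to mark the ureteric bud, neighbours in the order overlapped between mice.

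In marrow the order was led by Hoxb4, a factor that expands blood stem cells when it is overexpressed. Its level was 6.07, 5.70, 8.09, 5.52 and 9.09 CPM in vehicle mice 1 to 5, or 2.30 ± 0.559 CPM per kb, and no vehicle marrow had less of it per length than any had of the second gene. The next 4 genes were all of HoxA. Hoxa7 had 3.54, 3.46, 2.93, 4.01 and 2.79 CPM, Hoxa6 1.11, 0.959, 0.913, 0.911 and 0.941 CPM, Hoxa5 1.55, 0.843, 2.33, 2.08 and 1.85 CPM, and Hoxa9 4.68, 3.55, 4.94, 4.36 and 2.53 CPM. On the per-length scale these 4 overlapped with their neighbours in the order. Of the 9 HoxD genes only Hoxd8 passed the filter in the marrow comparison, with 26 to 38 counts per vehicle library. Hoxd3, Hoxd4 and Hoxd12 were at 0 in all 5 vehicle marrows.

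Tested gene by gene, 31 of the 39 members passed the filter in the fit over both tissues, and all 31 were called higher in vehicle kidney than in vehicle marrow. A call needed an adjusted p under 0.05 in edgeR's quasi-likelihood test, adjusted by the method of Benjamini and Hochberg across the 24321 genes tested, and a change beyond 1.5-fold. Across all those genes 72.9% were called, 34.6% as higher in kidney. Of the 31 members, 9 (5 of them of HoxD) passed the filter through kidney alone, and a gene of that kind had to differ. In 30 of the 31 the lowest kidney lay above the highest marrow, against 35.8% of all genes (72.9% in either direction). The median log2 difference over all genes was -0.12. Scaled by library size alone, the median over all genes moved to -0.541 and the share of higher calls from 47.5% to 37.8%. With that scaling 30 of the 31 calls were kept.

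The smallest difference was that of Hoxb4, which was 1.48 ± 0.156 higher in kidney on the log2 scale (SE, edgeR adjusted p = 8.6e-09). Hoxa2 and Hoxa4 also differed by less than 2 on that scale. Above them the HoxB genes of groups 5 to 9 differed by 3.94 to 5.80. Hoxd9 differed by 8.79 ± 0.245 (edgeR adjusted p = 2.3e-19) and Hoxd8 by 6.83 ± 0.193 (edgeR adjusted p = 3.1e-19). For Hoxd4, whose vehicle marrow libraries were all at 0, the kidney mean of 5.47 CPM, scaled over both tissues, was at least 69.6-fold higher than a floor of 3 counts per library, and for Hoxd3 at least 10.51-fold higher. These 2 genes share exons with each other and with noncoding genes over 52.3% of the exon length of Hoxd4 and 62.8% of that of Hoxd3, so their reads may be divided between them. Hoxd10 and Hoxd11, which pattern the limb and lower spine, had 4 reads each over all 5 vehicle marrows against 237 to 292 and 28 to 52 per vehicle kidney.

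Oxaliplatin was accompanied by higher Hox RNA in marrow. The summed level of the 39 genes was 38.1, 35.3, 36.8, 32.5 and 36.4 CPM in vehicle mice 1 to 5 and 62.5, 53.5, 64.8, 79.2 and 45.4 CPM in oxaliplatin mice 1 to 5, so that every oxaliplatin marrow lay above every vehicle marrow. Of the 39 members, 25 passed the filter on low counts and 14 did not. Of the 25 tested, 12 were called higher and none lower, beside 23.3% of all 22363 genes called, 11.6% higher and 11.8% lower. With scaling by library size alone, 63.3% in place of 49.6% of all calls were higher, the median over all genes moved to 0.108, and 14 members were called, all higher. With TMM scaling, 16 members had an unadjusted p under 0.05. Of the 25, 3 (Hoxb2 and Hoxc8 among them) passed with a median of under 10 counts in vehicle mice. The median log2 change of the 25 was 0.887, against -0.0378 over all genes tested. In 7 of the 25 the groups did not overlap, all higher, beside 11.4% of all genes (24.9% in either direction).

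The calls were unevenly spread over the clusters. HoxC had 5 calls among 7 genes tested, HoxA 3 of 9, HoxB 3 of 8 and HoxD 1 of 1. By position, all 6 tested genes of groups 9 to 11 were called, with log2 changes of 0.887 to 1.93, against 5 of 11 in groups 5 to 8 and 1 of 8 in groups 1 to 4. The medians of these 3 classes were 1.45, 0.748 and 0.559. Across the 25 genes the correlation of the log2 change with the paralog group number was r = 0.443, a description only, since the genes share libraries and neighbours share a cluster.

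Hoxa10 and Hoxd8 were among the genes whose groups did not overlap. Hoxa10, an Abdominal-B type gene used in the lower body and in early blood progenitors, had 2.12, 2.44, 2.33, 2.31 and 2.30 CPM in vehicle mice and 7.77, 6.73, 6.45, 7.36 and 3.93 CPM in oxaliplatin mice. Its lowest oxaliplatin value, that of mouse 5, was still above the highest vehicle value. The log2 change was 1.49 ± 0.197 (SE, edgeR adjusted p = 7.7e-05), a 2.80-fold higher level. Hoxd8 had 1.20, 0.785, 0.818, 0.968 and 1.23 CPM in vehicle mice and 3.08, 2.69, 3.26, 5.05 and 2.26 CPM in oxaliplatin mice. Its log2 change was 1.71 ± 0.262 (edgeR adjusted p = 0.00025).

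Promoter sequences for 22 of the 39 members, 24 in all because some genes have several starts, were given by RefSeq (GRCm38.p6). They covered only 4 of the 12 genes called. The 250 bases before the start of these 2 genes are printed below, with those of Hoxb4 as the gene that led the order in marrow and was not called. Capitals mark matches on either strand to one of 5 motifs. These were the TATA box, spelled TATAAA, the CCAAT box, the GC box, spelled GGGCGG, a site for PBX with HOX, spelled TGATTNAT, and a MEIS site, spelled TGACAG. None of these letters overlapped another match.
Hoxa10, chr6:52234940-52235189, minus strand: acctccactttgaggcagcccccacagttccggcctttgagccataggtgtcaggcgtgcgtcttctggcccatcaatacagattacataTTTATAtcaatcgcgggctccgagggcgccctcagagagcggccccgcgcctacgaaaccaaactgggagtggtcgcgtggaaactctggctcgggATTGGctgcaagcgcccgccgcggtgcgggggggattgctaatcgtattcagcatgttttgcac
Hoxd8, chr2:74704365-74704614, plus strand: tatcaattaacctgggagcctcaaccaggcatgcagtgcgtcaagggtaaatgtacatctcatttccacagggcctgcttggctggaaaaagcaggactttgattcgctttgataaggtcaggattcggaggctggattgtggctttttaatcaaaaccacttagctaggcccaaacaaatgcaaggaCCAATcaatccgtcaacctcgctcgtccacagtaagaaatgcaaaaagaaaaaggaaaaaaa
Hoxb4, chr11:96318017-96318266, plus strand: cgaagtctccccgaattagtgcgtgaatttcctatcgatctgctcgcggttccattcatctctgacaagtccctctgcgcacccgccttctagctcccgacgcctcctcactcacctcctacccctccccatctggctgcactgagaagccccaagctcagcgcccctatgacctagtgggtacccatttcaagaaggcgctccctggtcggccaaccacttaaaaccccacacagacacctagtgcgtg

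A CCAAT box began 64 bases before the start shown for Hoxa10 and 62 bases before that of Hoxd8, and none lay in the window of Hoxb4. For Hoxa10, RefSeq lists 2 starts, and the one nearer the gene's end is shown. Of the 24 Hox promoters, 14 (58.3%) held CCAAT in these 250 bases, against 33.8% of all 32851 promoters in the table. GGGCGG was found in 41.7% of the Hox promoters and 32.7% of all, TATAAA in 16.7% and 12.4%, TGATTNAT in 8.33% and 2.82%, and TGACAG in 8.33% and 15.9%. The windows of Hoxa7 and Hoxa9, the other called genes with a promoter, held no CCAAT. These are matches of letters and not measured binding.

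**Figure D2:**
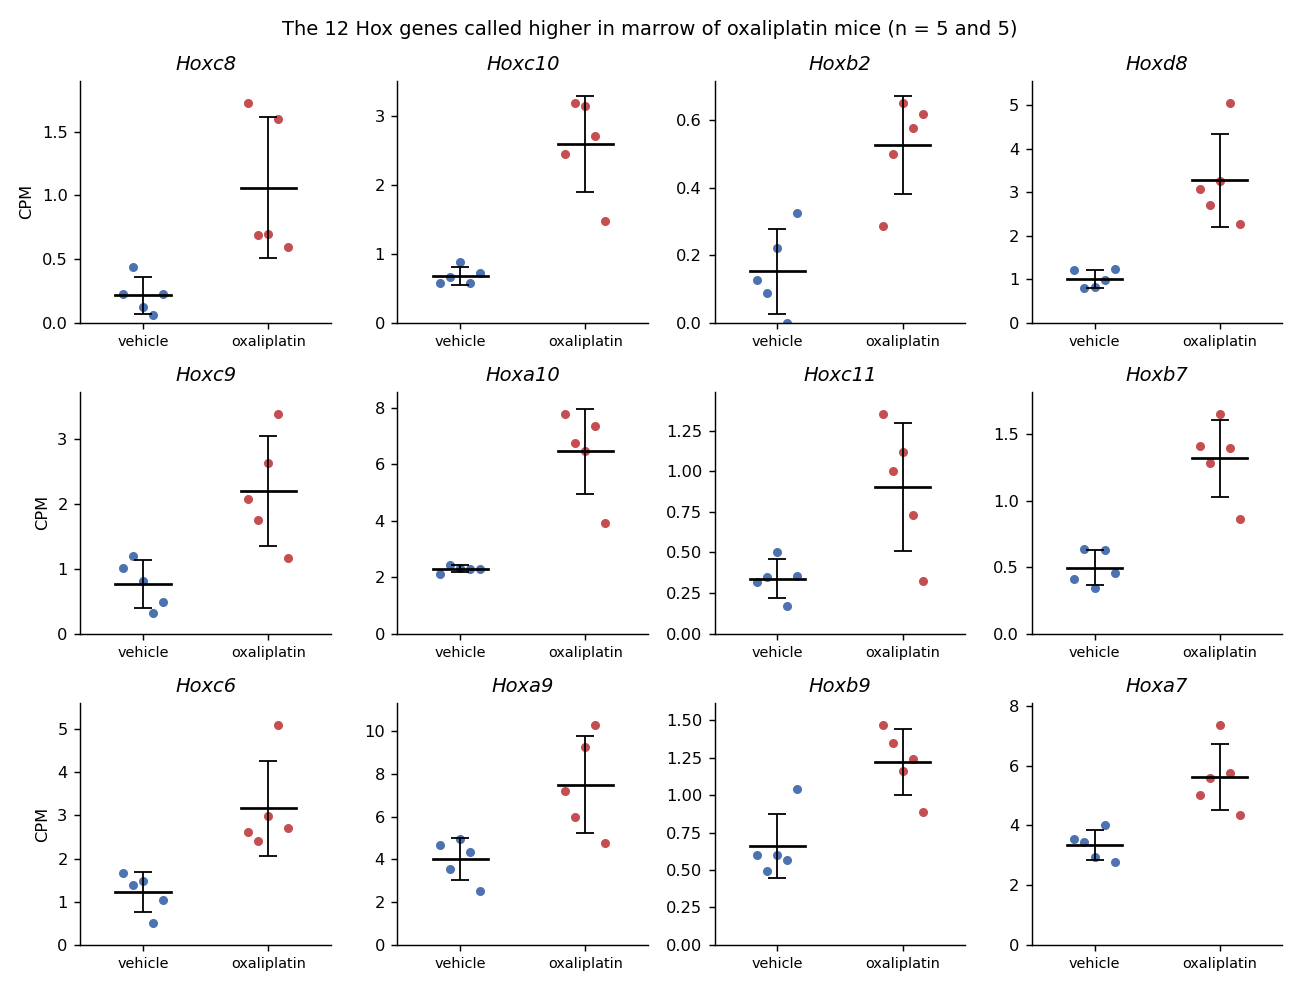
CPM of the 12 Hox genes called higher in marrow, in 5 vehicle and 5 oxaliplatin mice, ordered by fold change. Points are mice, placed from mouse 1 at the left to mouse 5 at the right of each group, lines are means and bars are SD; oxaliplatin mouse 5 is the lowest of its group in 10 of the 12 panels.

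Among the 25 tested members the largest log2 change was that of Hoxc8, a gene of the thoracic level that passed the filter through the oxaliplatin group. It had 0.221, 0.436, 0.126, 0.0569 and 0.227 CPM in vehicle mice and 1.73, 0.689, 0.698, 1.60 and 0.592 CPM in oxaliplatin mice. The groups did not overlap, and the log2 change was 2.30 ± 0.512 (edgeR adjusted p = 0.0037), from only 2 to 15 reads per vehicle library. Its posterior neighbours changed with it. Hoxc10, a gene of the lumbar and hindlimb level, had 0.569, 0.668, 0.881, 0.569 and 0.714 CPM in vehicle mice and 2.45, 3.19, 3.14, 2.71 and 1.48 CPM in oxaliplatin mice. Its log2 change was 1.93 ± 0.265 (edgeR adjusted p = 0.0001), with no overlap.

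Hoxc9, which lies between them, had 1.01, 1.19, 0.818, 0.313 and 0.487 CPM in vehicle and 2.07, 1.75, 2.63, 3.38 and 1.16 CPM in oxaliplatin mice. Only oxaliplatin mouse 5 fell within the vehicle range, and the log2 change was 1.52 ± 0.383 (edgeR adjusted p = 0.0077). For Hoxc11, one of the group 11 genes, the values were 0.316, 0.349, 0.504, 0.171 and 0.357 CPM in vehicle and 1.35, 1.00, 1.117, 0.734 and 0.323 CPM in oxaliplatin mice. Here too mouse 5 lay in the vehicle range, and without oxaliplatin mouse 1 the edgeR adjusted p of 0.020 became 0.055. On the other side of the cluster, Hoxc6 had 1.68, 1.40, 1.48, 0.512 and 1.04 CPM in vehicle and 2.62, 2.41, 2.98, 5.09 and 2.72 CPM in oxaliplatin mice. Oxaliplatin mouse 4 stood far above its group, and the lowest of the others was above every vehicle mouse. The log2 changes of Hoxc11 and Hoxc6 were 1.41 and 1.38. Hoxc4 and Hoxc5, at the anterior end, were not called at log2 changes of 0.93 and 0.67.

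In HoxA, Hoxa9 and Hoxa7 rose less than Hoxa10. Hoxa9, which acts with Meis1 in blood progenitors and in leukaemia, had 4.68, 3.55, 4.94, 4.36 and 2.53 CPM in vehicle mice and 7.19, 6.01, 9.29, 10.3 and 4.77 CPM in oxaliplatin mice. Its groups overlapped through oxaliplatin mouse 5 and vehicle mouse 3, and the log2 change was 0.91 ± 0.242 (edgeR adjusted p = 0.011). Hoxa7 had 5.03, 5.604, 7.36, 5.76 and 4.36 CPM in oxaliplatin mice, all above the vehicle values given earlier. Its log2 change was 0.75 ± 0.185 (edgeR adjusted p = 0.0070), and about 20.4% of its exon length overlapped another gene. Hoxa2 to Hoxa6 had log2 changes of 0.11 to 0.75 and none was called. Among them Hoxa5, which patterns the lung and the neck region, went from the vehicle values given earlier to 3.77, 2.07, 2.70, 3.09 and 2.91 CPM, with an edgeR adjusted p of 0.051.

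HoxB was split. Hoxb7 had 0.411, 0.639, 0.346, 0.626 and 0.454 CPM in vehicle mice and 1.41, 1.28, 1.65, 1.40 and 0.862 CPM in oxaliplatin mice, with no overlap and a log2 change of 1.41 ± 0.288 (edgeR adjusted p = 0.0021). Hoxb9 had 0.601, 0.494, 0.598, 0.569 and 1.04 CPM in vehicle and 1.47, 1.35, 1.16, 1.24 and 0.889 CPM in oxaliplatin mice. Vehicle mouse 5 overlapped with the treated group, and the call (log2 change 0.89 ± 0.282, edgeR adjusted p = 0.027) was lost when vehicle mouse 1, 2, 3 or 4 or oxaliplatin mouse 1 or 2 was left out, at adjusted p of 0.054 to 0.071. Hoxb2, a hindbrain gene, had 0.126, 0.0872, 0.220, 0 and 0.325 CPM in vehicle and 0.288, 0.501, 0.652, 0.578 and 0.619 CPM in oxaliplatin mice. It rested on 0 to 10 reads per vehicle library, and its call (log2 change 1.80 ± 0.595, edgeR adjusted p = 0.033) was lost without vehicle mouse 1 or 2 or oxaliplatin mouse 2, 3 or 4, at 0.051 to 0.085. About 27.3% of its exon length overlapped another gene.

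Hoxb4 and Hoxb3 were the 2 tested members with a lower mean in oxaliplatin marrow, and neither was called. Hoxb4 had 4.92, 4.29, 4.84, 6.67 and 5.12 CPM in oxaliplatin mice. Its log2 difference was -0.41, with a 95% interval of -0.82 to -0.0077 and an edgeR adjusted p of 0.11, and mouse 4 of the treated group lay above 3 of the 5 vehicle mice. Hoxb3 differed by -0.20 (95% interval -0.70 to 0.30), and about 52.9% of its exon length overlapped another gene. Hoxb5, Hoxb6 and Hoxb8, between these and the posterior genes, were not called at log2 changes of 0.11, 0.16 and 0.68, and the unevenness of the cluster was not tested as such. In the summed per-length level, HoxB went from 37.1 ± 4.26% of Hox RNA in vehicle marrow to 23.7 ± 1.65% in oxaliplatin marrow, while HoxC went from 15.7 ± 5.14% to 25.2 ± 2.19%. In level, HoxB was 4.33 ± 0.752 and 4.82 ± 0.847 CPM per kb in the same groups and HoxC 1.84 ± 0.616 and 5.25 ± 1.59 CPM per kb, so the lower HoxB share came without a lower HoxB sum.

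Members below the filter were read as raw counts. Hoxa13, the most posterior HoxA gene, had 0, 0, 4, 1 and 2 reads in vehicle marrows and 23, 22, 28, 34 and 7 in oxaliplatin marrows, with no overlap. Hoxc13, known for hair and nail, had 3, 0, 0, 4 and 2 reads against 12, 6, 22, 37 and 4. Hoxd4 was at 0 in all vehicle mice and had 7, 0, 5, 40 and 10 reads in oxaliplatin mice, most of them in mouse 4. The opposite order was seen in Hoxb1, the most anterior HoxB gene, which had 4, 10, 4, 2 and 1 reads in vehicle mice and 0 in every oxaliplatin mouse. With every gene of at least 1 count kept, edgeR called these 4 at adjusted p of 0.00061, 0.016, 0.0039 and 0.016, and DESeq2 called them at 1.1e-05, 0.0042, 0.00041 and 0.0076. The other 10 untested members were not called in either alternative, some of them without an adjusted p in DESeq2, and their counts ran from 0 to 24 per library.

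Oxaliplatin mice 3 and 4 had the highest summed levels and mouse 5 the lowest. Left out together, mice 3 and 4 took 4 calls with them (Hoxa7, Hoxa9, Hoxb2 and Hoxb9) and left 8, still all higher. Marker genes of other cell types moved in the same libraries. The counts of called genes stand beside 11.6% of all genes called higher in marrow and 11.8% called lower. All 8 adipocyte genes were called higher, led by leptin (Lep) and the lipid droplet gene Cidec, and their summed level was 179 to 276 CPM in vehicle marrows and 3308, 1740, 3046, 3522 and 952 CPM in oxaliplatin mice 1 to 5. It was highest in mouse 4 and lowest in mouse 5, as was the Hox sum. Of the 7 endothelial genes, 4 were called higher, with sums of 244 to 312 CPM in vehicle and 314 to 599 CPM in oxaliplatin marrows. This sum was highest again in mouse 4 but lowest of its group in mouse 2. Of the 12 stromal genes, 2 were called higher (Foxc1 and Kitl) and 1 lower (Runx2), a share near the 23.3% of all genes called in marrow. Their sums were 1740 to 2166 CPM in vehicle and 1896 to 3056 CPM in oxaliplatin marrows, the latter highest in mouse 1 and lowest in mouse 5.

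Skeletal muscle genes were also higher, 5 of 6 called, beside 11.6% of all genes. Their sums were 9.74 to 103 CPM in vehicle marrows and 373, 313, 778, 43.5 and 353 CPM in oxaliplatin mice 1 to 5. Here mouse 4, the highest in Hox RNA, was the lowest of its group and within the vehicle range. Of the blood lineage lists, those of erythroid and B cells were lower and that of neutrophils held no calls. Of the 7 T and NK cell genes 1 was called lower, beside 11.8% of all genes, and 4 had a positive log2 change. Their sums were 114 to 155 CPM in vehicle and 71.4 to 108 CPM in oxaliplatin marrows. Of the 8 erythroid genes 7 were called lower, and so were 7 of the 8 B cell genes, beside 11.8% of all genes. The erythroid sums were 6381 to 9467 CPM in vehicle and 1109 to 2097 CPM in oxaliplatin marrows. None of the 9 neutrophil genes was called, beside 23.3% of all genes called in either direction. The neutrophil sum was 19445 to 23780 CPM in vehicle marrows and 22832, 21632, 10272, 11869 and 27152 CPM in oxaliplatin mice 1 to 5. It was lowest in mice 3 and 4, which had the highest Hox sums, and highest in mouse 5, which had the lowest. The stem and progenitor list had 4 of 10 called higher, beside 11.6% of all genes. Among the 4 were Procr, Fgd5 and Mecom, known from stem cells and also from endothelium. Only 6 of the 10 had a positive log2 change, and the median of the list was 0.256. Its sums overlapped, at 256 to 319 CPM in vehicle and 271 to 331 CPM in oxaliplatin marrows. The part of these cell types in the Hox result was not tested.

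**Figure D3:**
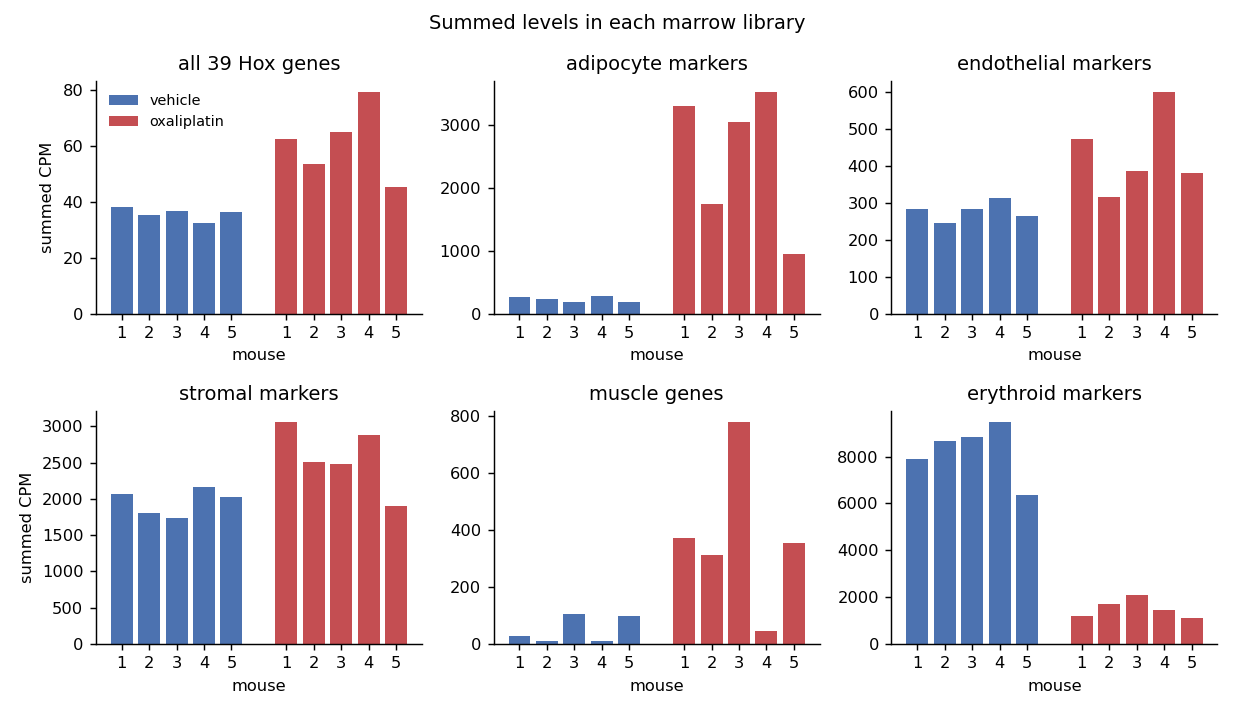
Summed CPM of the 39 Hox genes and of 5 marker lists in each marrow library, with vehicle mice 1 to 5 at the left and oxaliplatin mice 1 to 5 at the right of each panel (linear axes from 0). The Hox and adipocyte sums of oxaliplatin mice are both highest in mouse 4 and lowest in mouse 5, while the muscle sum is lowest in mouse 4.

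In kidney the treatment was accompanied by smaller changes. Of the 39 members 31 passed the filter, and 10 had an adjusted p under 0.05 in edgeR, all higher, beside 14.4% of all 19293 genes (29.4% in either direction). Only 2, Hoxc8 and Hoxb5, were also beyond 1.5-fold and so called, which is 6.45% of those tested beside 7.68% of all genes called higher, so the share was near the background. None was called lower, as 3.8% of all genes were (11.5% in either direction). The median log2 change was 0.228, against 0.025 over all genes, and under scaling by library size alone the latter moved to 0.157 and 6 members were called, with 82.7% in place of 66.9% of all calls being higher. In 5 genes the groups did not overlap, all higher (Hoxb5, Hoxb9, Hoxc4, Hoxc5 and Hoxc8), beside 9.69% of all genes (20.7% in either direction).

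Hoxc8 had 3.504, 2.78, 4.10, 3.62 and 1.98 CPM in vehicle kidneys and 5.23, 5.35, 4.42, 5.22 and 5.90 CPM in oxaliplatin kidneys. The lowest treated kidney, mouse 3, lay above every vehicle kidney, and the log2 change was 0.71 ± 0.176 (edgeR adjusted p = 0.0059). It was the only member called in both tissues. Hoxb5, which patterns the shoulder level and the gut nerves, had 9.54, 12.1, 7.68, 9.52 and 6.71 CPM in vehicle and 14.7, 13.4, 12.2, 13.5 and 16.4 CPM in oxaliplatin kidneys, a log2 change of 0.62 ± 0.138 (edgeR adjusted p = 0.0029). Both estimates lay close to the limit of 1.5-fold, and without vehicle kidney 5 neither was called. Hoxc8 alone of the 2 was called without vehicle kidney 3 or oxaliplatin kidney 5, and the count of called members, all higher, ran up to 5 (without vehicle kidney 1 or 2).

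The other 8 past the adjusted p were Hoxc4, Hoxc5, Hoxb3, Hoxb9, Hoxa3, Hoxc9, Hoxb4 and Hoxd8, with log2 changes of 0.21 to 0.58. Hoxb9 had the smallest adjusted p of the 10 (0.0014 in edgeR), with 16.7 to 18.6 CPM in the 5 vehicle kidneys and 20.3 to 27.8 CPM in the 5 treated ones. Hoxd8, the highest gene of the tissue, had 101.4, 104, 96.5, 90.7 and 97.8 CPM in oxaliplatin kidneys, and its log2 change was 0.21 ± 0.068 (edgeR adjusted p = 0.024), with an overlap at mouse 4. Hoxb4 had 13.9, 12.8, 13.4, 18.4 and 12.98 CPM in vehicle and 18.5, 19.5, 16.6, 17.9 and 18.8 CPM in oxaliplatin kidneys. Only vehicle mouse 4 reached the treated range.

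**Figure D4:**
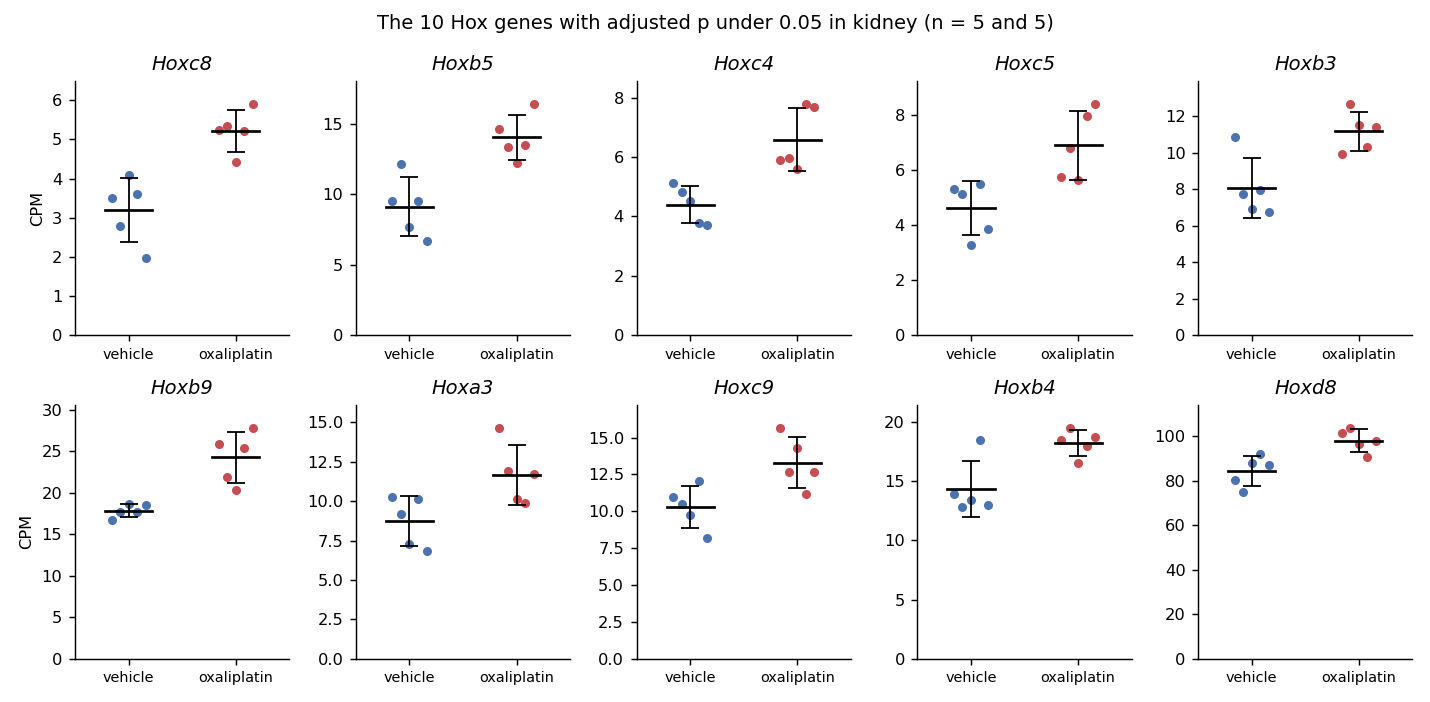
CPM of the 10 Hox genes with an adjusted p under 0.05 in kidney, in 5 vehicle and 5 oxaliplatin mice, ordered by fold change. Points are mice 1 to 5 from left to right, lines are means and bars are SD; the groups are apart in Hoxc8, Hoxb5, Hoxc4, Hoxc5 and Hoxb9.

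The other leading genes of the kidney did not pass the test. Hoxd9 had 72.3, 71.5, 68.1, 52.7 and 56.1 CPM in oxaliplatin kidneys (log2 difference 0.20, 95% interval 0.018 to 0.39, edgeR adjusted p = 0.092), with mice 4 and 5 in the vehicle range. Hoxa7 had 44.9, 47.8, 45.2, 32.0 and 38.5 CPM (log2 difference -0.20, interval -0.40 to 0.0070, edgeR adjusted p = 0.14). For Hoxb6 the values were 39.1, 35.1, 33.6, 30.0 and 29.5 CPM, and for Hoxb8 46.2, 52.0, 44.0, 40.4 and 37.9 CPM. Both gave small positive differences of 0.12 and 0.16 and were not called.

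Marker genes moved in the same kidneys. The counts of called genes stand beside 7.68% of all genes called higher in kidney and 3.8% called lower. Of the 10 stromal genes tested 6 were called higher, led by Col1a1. The summed level of the whole stromal list of 12 was 306 to 342 CPM in vehicle and 392 to 474 CPM in oxaliplatin kidneys. Higher calls were also given to 4 of 5 podocyte genes and 3 of 7 endothelial genes. Of the 4 kidney injury genes tested, Cdkn1a and Lcn2 were called higher, and the summed level of the list was 8.52 to 14.8 CPM in vehicle and 97.4 to 165 CPM in oxaliplatin kidneys. Of the 7 adipocyte genes tested 5 were called higher and 1 lower, while the sum over the list was 300.06 to 533 CPM in vehicle and 230 to 367 CPM in oxaliplatin kidneys. Of the 8 collecting duct genes tested, which mark the descendants of the ureteric bud, none was called, beside 11.5% of all genes in either direction. In 7 of the 8 the log2 change was positive, with a median of 0.19. The sum over all 9 genes of the list was 615 to 740 CPM in vehicle and 739 to 948 CPM in oxaliplatin kidneys. The proximal tubule sum was 22818 to 27066 CPM in vehicle and 13202 to 19287 CPM in oxaliplatin kidneys, with no overlap. Of the 7 genes in that list 2 were called lower, beside 3.8% of all genes. The log2 change was positive in 3 of the 7, and its median was -0.042. The part of these shifts in the Hox values was not tested.

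The responses of the 2 tissues were compared directly by the interaction of tissue and treatment. Of the 31 members tested, 13 had an adjusted p under 0.05, beside 30.1% of all 24321 genes. In 12 the change was more positive in marrow, beside 17% of all genes, and in Hoxb4 it was more positive in kidney, beside 13.1%. The smallest adjusted p-values were those of Hoxa10 (kidney minus marrow -1.76 ± 0.197 on the log2 scale, edgeR adjusted p = 6.0e-07), Hoxc10 (-2.05 ± 0.248, 1.7e-06) and Hoxd8 (-1.57 ± 0.235, 2.6e-05). These are among the genes with no overlap in marrow. For Hoxb4 the difference was 0.71 ± 0.217 (edgeR adjusted p = 0.017).

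**Figure D5:**
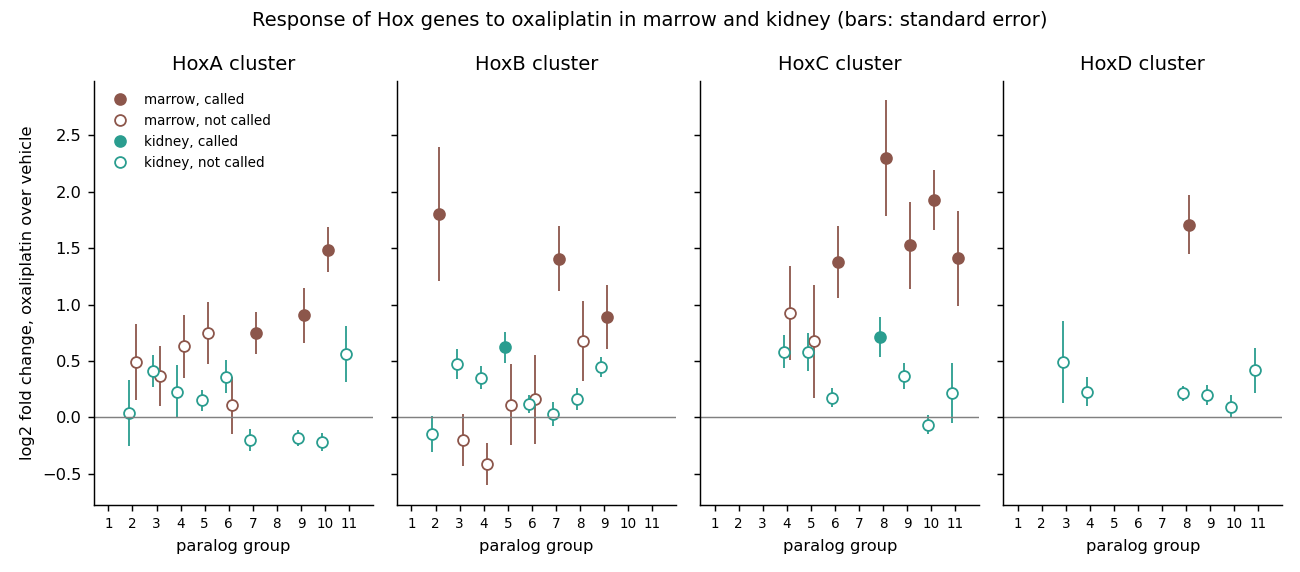
Log2 fold change of oxaliplatin over vehicle, with standard errors, by paralog group in each cluster, for genes tested in marrow and in kidney. Filled points were called; the marrow points of groups 9 to 11 lie between 0.887 and 1.93, while the kidney points run from -0.22 to 0.71.

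Hoxa10, Hoxa9 and Hoxc10, called higher in marrow, had lower means in the treated kidneys. Hoxa10 had 50.9, 41.4, 48.6, 46.7 and 47.8 CPM in vehicle and 43.8, 43.7, 44.2, 35.0 and 35.8 CPM in oxaliplatin kidneys, a log2 difference of -0.22 (95% interval -0.39 to -0.042, edgeR adjusted p = 0.058). Hoxa9 had 42.7, 43.5, 41.6, 44.0 and 42.7 CPM against 39.7, 42.9, 38.5, 33.3 and 34.9 CPM, with an adjusted p of 0.072. Hoxc10 had 15.5, 15.2, 15.2, 14.2 and 14.8 CPM against 15.4, 15.3, 13.8, 13.9 and 13.2 CPM, a difference of -0.064 with an interval of -0.24 to 0.11. None of these 3 passed the test in kidney, and treated kidneys 4 and 5 had the lowest values of Hoxa10 and Hoxa9.

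Hoxb7, Hoxc6 and Hoxb2 also had an interaction and were not called in kidney. Hoxb7 had 22.2, 17.4, 19.4, 17.5 and 19.8 CPM in vehicle and 24.3, 20.5, 19.4, 17.5 and 16.5 CPM in oxaliplatin kidneys. Hoxc6 had 18.6, 15.2, 16.9, 17.6 and 16.5 CPM against 21.5, 19.0, 20.03, 17.0 and 18.3 CPM, and Hoxb2 had 3.35, 3.501, 3.71, 4.54 and 3.80 CPM against 3.15, 4.47, 3.09, 3.01 and 3.30 CPM. Groups overlapped in all 3. Hoxc9, with 10.99, 10.5, 9.75, 12.1 and 8.17 CPM against 15.7, 12.7, 14.3, 11.1 and 12.7 CPM, rose by 0.37 in kidney (edgeR adjusted p = 0.027) and by 1.52 in marrow. Hoxd4 had 4.36, 5.06, 4.14, 5.26 and 4.93 CPM against 5.52, 5.61, 6.35, 5.19 and 5.18 CPM in kidney, and its interaction rested on vehicle marrows that were all at 0. For Hoxd9 the interaction was near the threshold (edgeR adjusted p = 0.046), with 3 to 24 reads per marrow library, and it was lost without each of 14 of the 20 libraries (0.050 to 0.11).

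The partners of Hox proteins did not follow 1 pattern. Of the 9 PBX, MEIS and PKNOX genes tested in marrow, Meis2 and Meis3 were called higher (log2 changes 0.68 and 0.86) and Pbx4 lower (-1.17), beside 23.3% of all genes called in either direction. Meis1 was higher by 0.55, past the adjusted p but short of 1.5-fold. In kidney Meis3, Pbx4 and Pknox2 were called higher, by 0.71, 1.03 and 0.66, and none lower, beside 7.68% and 3.8% of all genes. Pbx4 thus changed in opposite directions in the 2 tissues, with an interaction of 2.15 (edgeR adjusted p = 0.00074), at group means of 0.563 to 4.403 CPM.

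Genes that set the activity of the clusters were measured as a list of 26, of which 23 passed the filter in each tissue. In marrow 2 were called higher and 5 lower, beside 11.6% and 11.8% of all genes. The lower ones included Ezh2, the methyltransferase of Polycomb complex PRC2, at 150 ± 8.84 CPM in vehicle and 76.8 ± 16.9 CPM in oxaliplatin mice (log2 change -0.96, edgeR adjusted p = 9.6e-05). The others were the boundary factor Ctcf, the demethylase Kdm6a, the MLL partner Psip1 and the Polycomb gene Cbx7, with log2 changes of -0.63 to -0.80. The 2 called higher were Bmi1 of Polycomb complex PRC1 (log2 change 0.67) and the retinoic acid receptor Rarb (1.20). In kidney none of the 23 was called, beside 11.5% of all genes called in either direction. Genes that flank the clusters gave 1 call among 8 in marrow (Calcoco1, lower by 0.72 on the log2 scale), beside 23.3% of all genes. In kidney they gave none among 8, beside 11.5% of all genes.

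Noncoding genes in the clusters were scarce in marrow, where 3 of 17 passed the filter and none was called, beside 23.3% of all genes. In kidney 9 passed and 1 was called, beside 11.5% of all genes. It was Halr1, a noncoding RNA listed with HoxA, which went from 2.11 ± 0.369 CPM to 5.14 ± 1.06 CPM (log2 change 1.28 ± 0.183, edgeR adjusted p = 7.9e-05). Hoxb5os, antisense to Hoxb5, was not called, at a log2 change of 0.10. The clusters also hold the microRNA genes Mir10a, Mir10b, Mir196a-1, Mir196a-2 and Mir196b, whose products are known to target Hox transcripts. They are paralogs like their host clusters, as the shared seeds (bases 2 to 8, in capitals) show in the mature sequences given by RefSeq.
miR-10a-5p, HoxB: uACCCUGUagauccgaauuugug
miR-10b-5p, HoxD: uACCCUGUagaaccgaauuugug
miR-196a-5p, HoxB and HoxC: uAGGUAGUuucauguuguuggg
miR-196b-5p, HoxA: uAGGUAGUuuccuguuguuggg

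These libraries count longer RNA over the microRNA genes and not the mature products. Only Mir196a-1, which lies between Hoxb9 and Hoxb13, had more than a few reads. It had 42, 41, 31, 44 and 30 reads in vehicle kidneys and 65, 71, 41, 58 and 71 in oxaliplatin kidneys, which overlapped, with a log2 difference of 0.47 and an edgeR adjusted p of 0.090. In marrow it had 0 to 4 reads per library.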

How the data were processed

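Marrow and kidney RNA of 20 libraries was analysed from 2 tables of raw counts per gene, deposited by the authors. Per the study's methods, reads were aligned with STAR 2.5.1a to Ensembl release 101 and unambiguous reads counted; the submitters' processing notes also name featureCounts and Salmon, and library chemistry is described in 2 ways. Strand is not given in the sources used here, so overlapping and antisense genes cannot be told apart: exons of 16 of the 39 members overlap another gene. Each table lost 287 duplicate lines and 1 incomplete line.

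Lengths and coordinates came from GENCODE M21 (GRCm38), which held 55227 of 55486 identifiers and all members. Counts were tested with edgeR 4.0.16 (R 4.3.3; TMM, filterByExpr with a minimum count of 10, robust quasi-likelihood) within each tissue and, for tissue and interaction, over both. A call was an adjusted p under 0.05 and more than 1.5-fold (interaction: adjusted p). Alternatives used DESeq2 1.42.0, other scalings, filters, thresholds and covariates. The fits were tested on simulated data. No 2 libraries agreed within sampling noise.

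The members and lists were chosen with earlier results of these data known. Values per mouse are given for members called in a tissue or by the interaction and for the 5 highest per length in each vehicle tissue; other genes come from the fixed lists. Some genes are not reported here. Genes below the filter, and the mouse sets left out, were named after their values were seen. Nothing states that libraries are more than separate samples, so p-values measure the spread between them. Intervals are 95% and floors (3 counts) cover counting error only.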

Additional observations from a re-analysis of the deposited data

Results flagged for a closer look

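Among 66 groups of 5 mice given a gap test for an isolated value, 5 had such a mouse, and chance gives about 1 in 20. These were vehicle marrow mouse 1 in Hoxa6 (1.11 CPM), vehicle marrow mouse 5 in Hoxb9 (1.04 CPM), oxaliplatin marrow mouse 4 in Hoxc6 (5.09 CPM), vehicle kidney mouse 4 in Hoxb4 (18.4 CPM) and oxaliplatin kidney mouse 2 in Hoxb2 (4.47 CPM), each the highest of its group.

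The change with oxaliplatin differed between kidney and marrow in 13 members by the interaction test of edgeR. The difference, kidney minus marrow on the log2 scale, was -5.94 in Hoxd4, -2.05 in Hoxc10, -2.02 in Hoxb2, -1.76 in Hoxa10, -1.64 in Hoxc8, -1.57 in Hoxd8, -1.44 in Hoxb7, -1.27 in Hoxc6, -1.23 in Hoxc9, -1.16 in Hoxa9, -1.02 in Hoxd9, -1.01 in Hoxa7 and 0.71 in Hoxb4. The value of Hoxd4 is a fitted number over vehicle marrows at 0 and gives no bound.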

How the results depend on the processing

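Counts of called members were 12 in marrow, 2 in kidney, 31 between tissues and 13 for the interaction. With DESeq2, 1 marrow member was called lower (Hoxb1), as with the filter removed, and 2 interactions were positive. Library size alone gave 6 calls in kidney. Requiring 10 counts in every library gave 4 in kidney, 20 between tissues (fewer genes tested) and 2 positive interactions. Testing against 1.5-fold gave 7 in marrow and 0 in kidney, and a 2-fold limit 0 in kidney. Leaving out 1 mouse gave 11 to 14 in marrow, 0 to 5 in kidney, 30 to 31 between tissues, 12 to 18 interactions and 1 to 2 positive ones. The HoxD share of vehicle kidney, 31.5%, was 27.2% by coding length and 28.5% by longest transcript. Same-numbered vehicle and oxaliplatin libraries, compared by their deviations from group means, had r = -0.10 to 0.30 in marrow and -0.175 to 0.081 in kidney. Same-numbered marrow and kidney libraries had r = -0.069 to 0.027 in vehicle and -0.056 to 0.175 in oxaliplatin groups. These values do not settle whether marrow and kidney came from the same animals. With a replicate block the counts were 12, 3, 31 and 12. No called member changed sign in these alternatives in the comparison where it was called. Members not called could change sign: 26 of the 31 kidney log2 changes were positive, and 27 by library size alone. Depth limits the marrow members with under 10 reads.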

Other observations

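Hoxc5, which was not called in marrow, had 22, 113, 19, 25 and 22 reads in vehicle marrows 1 to 5 and 77, 34, 60, 151 and 58 in oxaliplatin marrows, so that vehicle mouse 2 lay within the treated range. The gene was chosen after its values were seen. The same mouse did not stand apart in Hoxc10, whose gene overlaps Hoxc5 in the annotation, with 23 reads against 18 to 28 in the group.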
